A study of Arabidopsis thaliana with 2 samples.

Results

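Class III peroxidases are the secreted plant peroxidases, a large gene family whose members were chosen here as 58 listed loci of Arabidopsis thaliana. The platform annotation named a probe set for 49 of the 58 loci, out of 14312 genes named on the array in all, and the other 9 have no value here. The 49 loci were read by 46 probe sets, of which 42 named 1 gene and 4 were shared by a pair of genes. Of these 46 probe sets, 14 (30.4%) were expressed in shoots, meaning that the brighter of the arrays gave a signal of at least 200. Over all 22746 non-control probe sets, 49.7% reached that minimum.

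The data were 2 Affymetrix arrays of the aerial parts of seedlings aged 14 days. One array held wild-type Columbia-0 and the other GFP-TIE1-15, which the labels give as a transgenic line carrying GFP-TIE1, by its name TIE1 joined to green fluorescent protein. Both genotypes had 3 days of cold at 4 °C as seeds and then grew on half-strength Murashige and Skoog medium at 22 ± 2 °C with 16 h of light a day, and the promoter of the transgene is not given in the labels. TIE1 is known as a repressor that binds TCP transcription factors of leaf development, and the comparison asks which transcripts differ in shoots that carry the transgene. With 1 array per genotype and 1 transgenic line, no difference has a replicate check, no test was possible, and the number of arrays limits the precision of every value.

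Class III peroxidases are heme enzymes of the cell wall and vacuole. They use hydrogen peroxide to couple monolignols into lignin and to cross-link wall proteins such as extensins, which stiffens the wall, and they can also produce reactive oxygen species that loosen it or serve in defence. Many members are known for expression in roots, and others act in vessels, leaves, anthers or seed coats.

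The deposited signals had a median of 169.3 for wild type and of 173.05 for the transgenic line, and a trimmed mean of 500.05 on both. Differences are given as log2 ratios, the transgenic line over wild type, after 50 was added to each signal, which understates the differences of dim probe sets. Across the 11310 measured non-control probe sets the median log2 ratio was 0.01, with a robust SD of 0.33. TIE1 (AT4G28840) had no named probe set, so the transgene was not checked here. The green shoot markers RCA, LHCB4.1 and LHCB4.2, the 3 of 13 listed that had a named probe set, were bright on both arrays, with signals from 10464 to 25525. Of 15 listed root markers, 3 could be read, and the root hair expansins EXPA7 and EXPA18 were below the minimum. The third root marker, PYK10, was at 6746 in wild-type shoots and 5954 in GFP-TIE1-15 shoots.

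None of the 14 expressed peroxidase probe sets differed by 2-fold on the log2(signal + 50) scale. The background was small as well: among all measured probe sets, 1.2% were higher in GFP-TIE1-15 by this measure, and 2.39% were lower. The peroxidases lay evenly on both sides, with 7 above 0 and 7 below. Their log2 ratios ran from -0.96 for AT5G64120 to 0.95 for AT2G22420, with a median of 0.05 that became -0.11 over the 8 probe sets left by a minimum of 500. The median size of the log2 ratio, sign set aside, was 0.50 over the 14 peroxidase probe sets and 0.22 over all measured probe sets. Of the 14, 3 reached the minimum on 1 array only, among them AT2G22420 with the highest ratio. At a 1.5-fold rule, chosen after the values were seen, 3 of the 14 were higher, where 6.78% of all measured probe sets were. These 3 were AT5G64110, the probe set shared by AT4G37520 and AT4G37530, and AT2G22420. The last of them passed the minimum only through the array where it was high. At the same rule 2 of the 14 were lower, where 6.86% of all measured probe sets were.

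**Figure D1:**
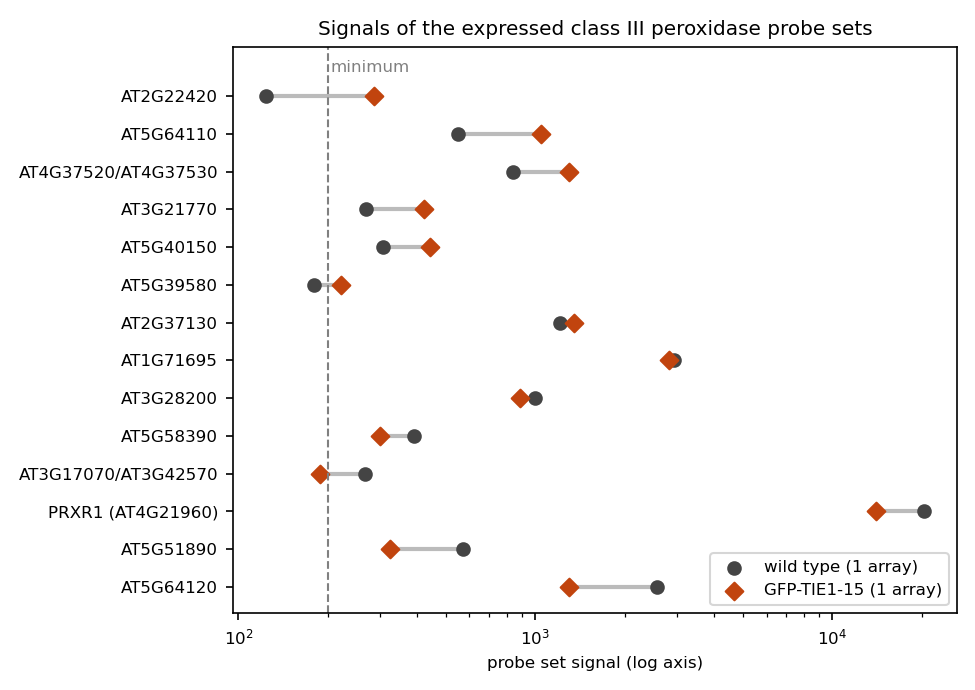
Signal of each expressed class III peroxidase probe set (x axis, log scale) in wild type (dark circles) and GFP-TIE1-15 (orange diamonds), 1 array each, with the minimum of 200 dashed; rows are ordered by log2 ratio, and signals compare only within a row. The lines of AT2G22420 (123.7 to 285.8) and AT5G64120 (2568 to 1293) are the longest in each direction.

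The peroxidases linked with lignin were expressed only in part. A role in lignification was noted for 8 of the 58 loci, 7 of which had a probe set. Of these 7, 3 were expressed, 1 with a log2 ratio above 0 and 2 below. The 1 above 0, AT2G22420, passed the minimum only through the GFP-TIE1-15 array, where it was high. AT5G64120, the PRX71 gene, encodes a peroxidase known for a part in stem lignin and for limiting cell size when the wall is damaged. It gave a signal of 2568 in wild-type shoots and 1293 in GFP-TIE1-15 shoots, which is 1.99-fold lower in the transgenic line in raw signal and a log2 ratio of -0.96 with 50 added. AT5G51890, a gene known from differentiating vessels, had 571 in wild-type shoots and 325.3 in GFP-TIE1-15 shoots, a log2 ratio of -0.73. Both genes were above the minimum on both arrays.

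AT2G22420, which encodes a peroxidase of lignified tissue, had the opposite direction. Its signal was 123.7 in wild-type shoots and 285.8 in GFP-TIE1-15 shoots, a log2 ratio of 0.95. It reached 200 in GFP-TIE1-15 only, and a probe set that passes on 1 array only is always higher on that array. Its ratio depended on the pseudocount, with 1.20 at a pseudocount of 1 and 0.72 when the pseudocount was 25% of the trimmed mean. At a pseudocount of 1 it was the only one of the 14 past 2-fold, where 1.85% of all those measured were higher by that much and 3.06% lower. At the larger pseudocount none of the 14 was past 2-fold, where 0.663% of all measured probe sets were higher and 1.73% lower. The other lignin-linked members with a probe set were below the minimum on both arrays. AT4G33420, also known from vessels, lay just under it, with 195.5 in wild-type shoots and 193.4 in GFP-TIE1-15 shoots. PRX52 (AT5G05340) of stem lignin had 48.4 and 21.5, PRX72 (AT5G66390) had 3.6 and 28.3, and PRX25 (AT2G41480) had 38.1 and 59.2, wild type given first. PER64 (AT5G42180), of the Casparian strip, has no value here.

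A run of 3 neighbouring members on chromosome 5 held differences in opposite directions. AT5G64100, AT5G64110 and AT5G64120 lie beside each other with no protein-coding gene between them in the TAIR10.1 gene order. AT5G64100 was below the minimum on both arrays, with 140.2 in wild-type shoots and 133.4 in GFP-TIE1-15 shoots. AT5G64110 had 547.7 in wild-type shoots and 1045 in GFP-TIE1-15 shoots, a log2 ratio of 0.87. Its neighbour AT5G64120 was at -0.96, as given above, so the log2 ratios of these neighbours lay 1.84 apart. Each of these genes was read by a probe set naming 1 gene. In the pair AT5G58390 and AT5G58400, also neighbours, AT5G58390 was expressed, with 390 in wild-type shoots and 300.6 in GFP-TIE1-15 shoots (log2 ratio -0.33). AT5G58400 had 7.4 and 2.

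**Figure D2:**
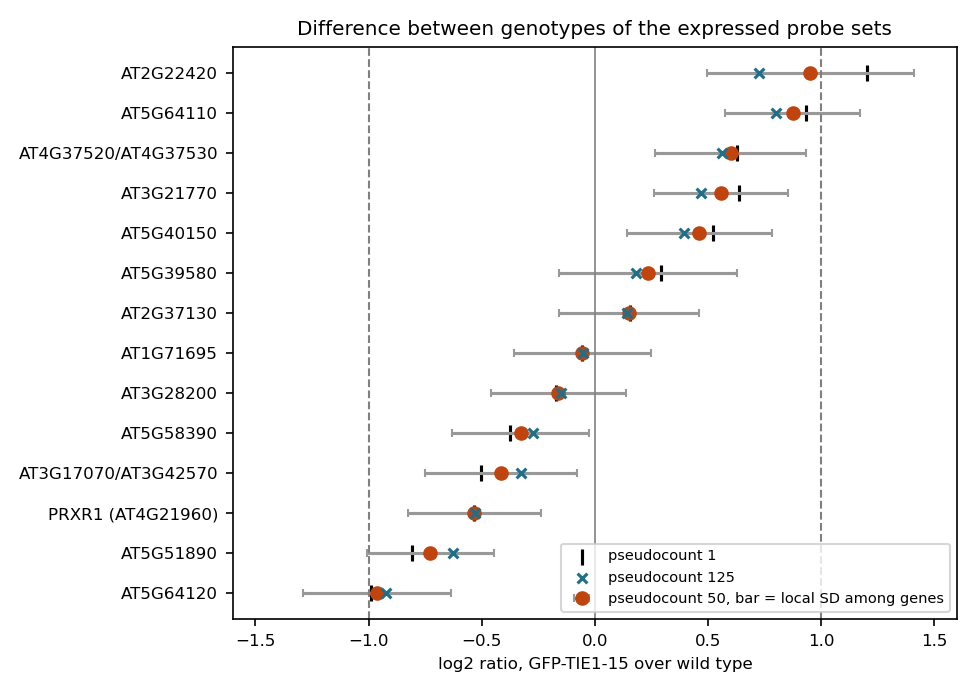
Log2 ratio (transgenic line over wild type) for the 14 expressed probe sets (orange points, pseudocount 50), with bars of 1 local SD, the spread of log2 ratios over the 500 measured probe sets nearest in signal, which is not an error between plants; black ticks and blue crosses give the ratios with a pseudocount of 1 and with 25% of the trimmed mean as pseudocount. All orange points lie between the dashed 2-fold lines, and the black tick of AT2G22420 alone lies outside them.

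Other members with higher signals in GFP-TIE1-15 had smaller ratios. The probe set shared by AT4G37520 and AT4G37530, also neighbours, had 839.6 in wild-type shoots and 1298 in GFP-TIE1-15 shoots, a log2 ratio of 0.60, and the genes cannot be told apart on it. AT3G21770 had 269.8 and 420.6, a log2 ratio of 0.56, and AT5G40150 had 306.5 and 441, a log2 ratio of 0.46. These 3 probe sets were above the minimum on both arrays. AT5G39580, a gene known for a part in root hair growth, had 180.4 in wild-type shoots and 221 in GFP-TIE1-15 shoots (log2 ratio 0.23). It lay just inside the minimum, which it reached in GFP-TIE1-15 only.

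PRXR1 (AT4G21960) had a signal of 20347 in wild-type shoots and 14044 in GFP-TIE1-15 shoots, a log2 ratio of -0.53. Green shoot markers lay in the same direction, with log2 ratios of -0.35 for RCA (Rubisco activase), -0.33 for LHCB4.1 and -0.57 for LHCB4.2 (antenna proteins of photosystem II). Quantile normalization, which gives both arrays the same distribution of signals, left PRXR1 at -0.36 and the median of the 3 markers at -0.15. With the loess trend removed these values were -0.45 and -0.26, and after division by array medians they were -0.56 and -0.38. The part of green tissue or of the scaling of bright signals in the PRXR1 value was not tested. In whole shoots, fewer cells of a type and less RNA per cell cannot be told apart.

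**Figure D3:**
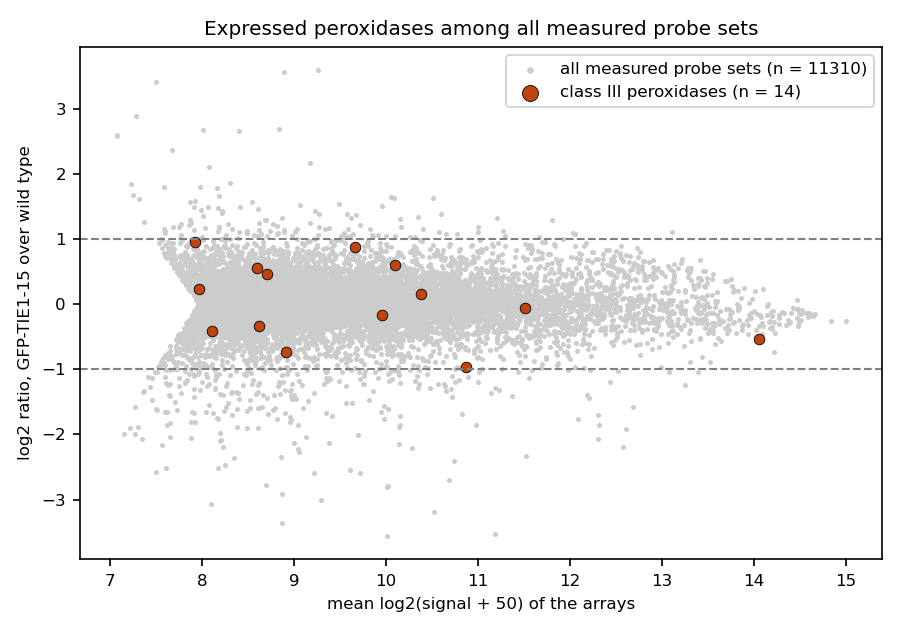
Log2 ratio (transgenic line over wild type, y axis) against the mean log2(signal + 50) of both arrays (x axis) for all 11310 measured non-control probe sets (grey) and the 14 expressed peroxidase probe sets (orange). The peroxidases lie between -0.96 and 0.95, inside the dashed 2-fold lines, at signals from dim to bright.

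AT1G71695, AT2G37130 and AT3G28200 had smaller ratios. AT1G71695 had 2925 in wild-type shoots and 2813 in GFP-TIE1-15 shoots, a log2 ratio of -0.06, and AT2G37130 had 1210 and 1350, a log2 ratio of 0.15. AT3G28200 had 999.6 and 888.3, a log2 ratio of -0.16. The size of the log2 ratio was below the local SD in 4 of the 14 probe sets, those 3 and AT5G39580. It exceeded 2 local SDs in 4, where 10.6% of all measured probe sets did. These 4 were AT5G64120, AT5G64110, AT5G51890 and AT2G22420, the last of which passed the minimum only through the array where it was high. The local SDs of the 14 ran from 0.28 to 0.46 and describe the spread among genes on these arrays. The probe set of AT3G17070 had 267.8 and 188.6, a log2 ratio of -0.41, but it also reads AT3G42570, which is not among the 58 loci, and it reached the minimum in wild type only. Over the 11 probe sets above the minimum on both arrays, 5 had a log2 ratio above 0 and 6 below. Their median was -0.06, where that of all 10156 such probe sets was 0.01.

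The other 32 peroxidase probe sets were below the minimum on both arrays, and 19 of them were below 50 on both. Low signals are not shown to mean absence, since no detection calls were used. Their log2 ratios with 50 added ran from -0.63 for AT5G17820 to 0.67 for AT4G16270. Probe sets below 50 on both arrays cannot reach 2-fold on that scale, whatever their signals. With a pseudocount of 1, a setting applied to them after the values were seen, 4 of the 32 were at least 2-fold higher, where 14% of all probe sets below the minimum were. In the lower direction 9 of the 32 were past 2-fold, against 17% of all such probe sets. At these signals the ratios have no error estimate. Of the 32, 21 had a lower signal in GFP-TIE1-15 and 11 a higher one. That is 65.6% lower, where 51.6% of all 11436 probe sets below the minimum were lower.

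Members noted here for a role in root hair or root growth were below the minimum where they could be read, except for AT5G39580. A role in root hair or root growth was noted for 8 loci, of which 5 had a probe set and 4 of those were below the minimum. The root hair gene AT4G26010 had 91.4 in wild-type shoots and 44.1 in GFP-TIE1-15 shoots. AT5G17820 and AT4G11290, also noted for root growth, had 85.5 and 115.2 on the wild-type array, against 37.3 and 89.7 on the GFP-TIE1-15 array. AT5G64100, described above, was the other. EXPA7, at 30.1 and 3.8, and EXPA18, at 62.3 and 44.3, were also dim and lower in GFP-TIE1-15. The third root marker that could be read, PYK10, was bright, at 6746 and 5954 (log2 ratio -0.18). The part of root tissue in these values was not tested.

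The 3 members noted here for anthers and seed coats were also dim. AT1G44970, a tapetum peroxidase gene, had 23.9 in wild-type shoots and 10.7 in GFP-TIE1-15 shoots, and AT4G16270, likewise of the tapetum, had 0.8 and 31. AT3G50990 (PER36), of the seed coat, had 2.3 and 1.6. Prx37 (AT4G08770), whose overexpression is known to reduce growth, had 103.5 and 91, and its neighbour AT4G08780 had 33.8 and 65.2. The shared probe set of the neighbours AT2G38380 and AT2G38390 lay just under the minimum, with 188.6 and 136.9. PRXCA (AT3G49110) and PRXCB (AT3G49120), known for the oxidative burst of immunity, were among the 9 loci without a named probe set, with PER64, the cold-inducible gene RCI3 (AT1G05260), PA2 (AT5G06720), the root hair genes RHS18 (AT5G22410) and RHS19 (AT5G67400), AT1G05240 and AT3G32980.

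The remaining dim probe sets were those of AT1G14550, AT1G49570, AT1G77100, AT2G18980, AT2G39040, AT2G43480, AT3G01190, AT3G03670, AT3G49960, AT4G30170, AT4G36430, AT5G06730, AT5G14130, AT5G15180, AT5G19880 and AT5G19890, and the one shared by the neighbours AT2G18140 and AT2G18150. Their brighter array gave from 2.3 for AT3G01190 to 137.3 for AT4G36430. Their log2 ratios ran from -0.52 for AT5G19890, at 36.9 in wild-type shoots and 10.7 in GFP-TIE1-15 shoots, to 0.46 for AT2G18980, at 40.3 and 74.3.

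**Figure D4:**
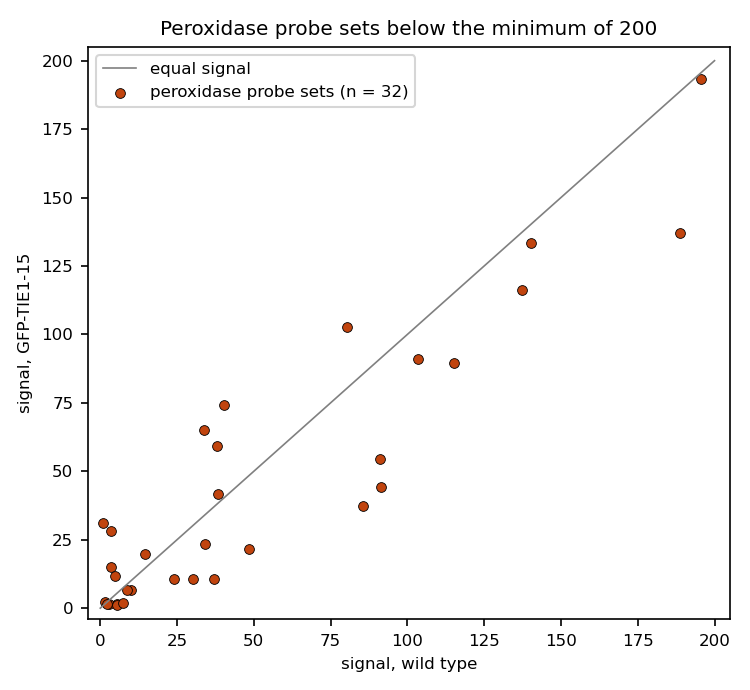
Signals in wild type (x axis) and GFP-TIE1-15 (y axis) of the 32 class III peroxidase probe sets below the minimum of 200, 1 array each, with the line of equal signal. Of the points, 21 lie below the line and 11 above it, and the brightest, AT4G33420 at 195.5 and 193.4, lies close to it.

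Genes that share a pathway with the peroxidases could be read only in part, because few had a named probe set. Of 19 listed genes of monolignol synthesis, which makes the lignin units that peroxidases couple, 2 had one. HCT (AT5G48930) had 1207 in wild-type shoots and 1129 in GFP-TIE1-15 shoots, a log2 ratio of -0.09, and CCR2 was below the minimum at 23 and 2.9. Of 8 listed ascorbate peroxidases, the class I enzymes that remove hydrogen peroxide inside cells, 2 had such a probe set and were measured. Neither was 2-fold apart. These were the plastid enzymes TAPX (AT1G77490), with 2055 and 1613 (log2 ratio -0.34), and SAPX (AT4G08390), with 2041 and 2192 (log2 ratio 0.10).

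Of 15 listed extensins and leucine-rich repeat extensins, wall proteins that peroxidases can cross-link, 5 had a probe set naming 1 gene. Only 1 of them was measured. This was AT3G24480, with 193.4 in wild-type shoots and 213.9 in GFP-TIE1-15 shoots, a log2 ratio of 0.12. It reached the minimum in GFP-TIE1-15 only. Of 10 listed respiratory burst oxidase genes, which supply superoxide outside the cell, 3 had such a probe set, with signals of at most 23.1. Laccase LAC16, the superoxide dismutase gene AT3G56350 and the defence gene PDF1.2 were below the minimum. Each was the only member of its list with such a probe set. PDF1.2 had 144.4 in wild-type shoots and 61 in GFP-TIE1-15 shoots. No member of the lists of catalases, glutathione peroxidases, Casparian strip and suberin genes and germin-like proteins had a probe set naming 1 gene. Probe sets shared by several genes were not read for these lists.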

How the data were processed

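Per the submitters' processing notes, the deposited intensity values, linear probe set signals, were made with GCOS 1.0 and MAS5. The scaling target and detection calls are not given in the sources used here, and the trimmed means (2% of values removed at each end) were equal, so signals were used as deposited. Nothing says how many plants each array pooled.

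Probe sets were named through the platform annotation and the TAIR10.1 RefSeq gene table, which also gave gene order; 13513 probe sets had 1 symbol, 503 had several and 8730 non-control ones were unnamed here. Peroxidase probe sets shared by a pair of genes were kept as pairs. The related gene lists were read only on probe sets with 1 symbol. Probe sets whose brighter array reached 200 counted as measured. The log2 ratio used log2(signal + 50), and called means 2-fold in size. The local SD is the scaled median absolute deviation over the 500 nearest measured probe sets. With 1 array per genotype no test was run; the scripts were tested on simulated data.

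The members, their roles and all gene lists were chosen with earlier results of these data known. Every measured member was named, with those below the minimum that were 2-fold apart or just below it, and up to 4 measured genes of each list; other dim members and list genes named in the text were chosen after their values were seen. Alternatives were quantile, median and loess scaling, a pseudocount of 1, or 25% of the trimmed mean as pseudocount, minimums of 500 and none, and removal of shared probe sets. Promoter motifs and protein identity were not analysed here. Python 3.11.15, numpy 2.4.6, pandas 2.3.3, statsmodels 0.14.6 and matplotlib 3.10.9 were used.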

Additional observations from a re-analysis of the deposited data

How the results depend on the processing

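No paired analysis was possible because there was a single array for wild type and a single one for GFP-TIE1-15. The 14 expressed probe sets became 8 with a brightness minimum of 500, which by construction leaves fewer. None of the expressed probe sets was 2-fold apart under the planned settings, except that 1 was higher with a pseudocount of 1. Of the 32 probe sets below the minimum, 4 were higher and 9 lower with a pseudocount of 1 and none with 50 added, a difference that follows from the added value. The 1.5-fold rule, chosen after seeing the data, gave 3 higher and 2 lower. Among the 3 was AT2G22420, which passed the minimum only through the array where it was high. In the 104 alternatives run for the 14 named members, no sign changed and no value moved by more than its local SD; where a setting could not change a ratio (a minimum or the removal of shared probe sets), this tested nothing. The median of the expressed members ranged from -0.11 to 0.06 and so has no stable sign, and the median of all measured probe sets from -0.02 to 0.01. The median of the green shoot markers ranged from -0.38 to -0.15. No other related list had 3 measured genes, and no median is given for those. Signal over background limits every dim member, since no detection calls were used.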
